A study of Mus musculus with 32 samples.

Results

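The 10 genes that release calcium into the muscle fibre, clear it and buffer it were followed over the 4 groups of a laser-capture RNA sequencing study of the mouse neuromuscular junction (NMJ). They were chosen by name for their place in this pathway, and all 10 of the 10 were found among the 24952 genes of the deposited tables. The 32 libraries came from the tibialis anterior muscle of male, wild-type C57BL/6JRj mice that were caged singly and fed AIN93M diet, for 2 to 3 months in the mice aged 10 months (10m) and for 16 months in those aged 30 months (30m). At each age, 8 libraries held NMJ regions, found by fluorescent α-bungarotoxin, which binds acetylcholine receptors, and 8 held regions of the muscle away from the junction (xNMJ). A captured region holds all the cells that lie in it, so that the fibre, its terminal Schwann cells and the surrounding connective tissue were read together, and each library pooled many regions. No gene or drug was altered in any of the 4 groups. Nothing in the labels says whether libraries with one replicate number came from one mouse, so p-values measure the spread between these libraries.

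In a skeletal muscle fibre, an action potential moves the voltage sensor of the transverse tubule, which opens the ryanodine receptor Ryr1 in the facing membrane of the sarcoplasmic reticulum. Calcium that calsequestrins Casq1 and Casq2 hold inside the reticulum flows out, triadin (Trdn) ties calsequestrin to the release channel, and the adaptor Stac3 couples the voltage sensor to release. Relaxation depends on the SERCA pumps, with Atp2a1 (SERCA1) known from fast fibres and Atp2a2 (SERCA2) from slow fibres and heart, on their small membrane-bound regulators sarcolipin (Sln) and phospholamban (Pln), and in fast fibres on the soluble buffer parvalbumin (Pvalb).

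Total counts ranged from 4026648 to 16516788 per library. The 10m medians were 6062117 (xNMJ) and 9605869 (NMJ), the 30m medians 6790011 (xNMJ) and 9825357 (NMJ), so that the NMJ libraries were the deeper ones. A level of 3 counts, taken as the floor for a gene seen at 0, correspond to 0.153 to 0.933 CPM, the counts scaled to a common library total, and this floor covers counting error only. The captured regions carried the labels' identity: all 7 synaptic fibre genes tested (Chrne, Chrnd, Chrna1, Musk, Colq, Ache and Etv5) were higher in NMJ at both ages, with summed levels of 1034 to 2133 CPM in 10m NMJ and 20.5 to 44.0 CPM in 10m xNMJ. Of the 8 10m xNMJ libraries, Chrne was at 0 in 6, Chrnd in 4 and Etv5 in 4, so the calls of these 3 genes are not read as sizes. One 30m xNMJ library, replicate 5, held 422 CPM of the 7 synaptic fibre genes against a group median of 36.5 CPM, and the regional differences at 30 months were therefore also computed without it. The call or missing call of each of the 10 genes at 30 months was the same without it. Muscle fibre genes were abundant in each group, with Acta1 the most abundant of its list.

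The coding sequences of the 2 small regulators of the pumps are shown because both proteins are read from very short frames. Sarcolipin is encoded by 31 codons at chr9:53853473-53853568 and phospholamban by 52 codons at chr10:53343864-53344022 (GRCm38, plus strand for both). The coding strands from GENCODE M21 run as follows, 5′ to 3′, with the start and stop codons in capitals.
Sln: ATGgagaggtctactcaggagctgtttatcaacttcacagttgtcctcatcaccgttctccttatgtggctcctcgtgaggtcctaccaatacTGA
Pln: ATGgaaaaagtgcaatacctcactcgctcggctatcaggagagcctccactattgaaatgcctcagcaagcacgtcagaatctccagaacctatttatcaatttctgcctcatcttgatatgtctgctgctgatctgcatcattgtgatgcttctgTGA

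Promoter sequences from RefSeq (GRCm38.p6) were found for 6 of the 10 genes, namely Casq1, Casq2, Ryr1, Atp2a1, Pln and Pvalb. Those of Atp2a1, Casq2 and Pvalb are shown, since these genes were respectively lower, higher and near level in NMJ at 10 months under the scaling used here. Each run is the 250 bases before the transcript start in RefSeq, on the strand of the gene and 5′ to 3′. Gene positions elsewhere are those of GENCODE, in which Atp2a1 starts further upstream, so that the end of its window lies inside the GENCODE gene. Capitals mark the E-box letters CANNTG, which are the core letters bound by myogenic factors and read the same on both strands, and the N-box letters CCGGAA on either strand, which are bound by ETS factors.
Atp2a1, chr7:126463074-126463323, minus strand: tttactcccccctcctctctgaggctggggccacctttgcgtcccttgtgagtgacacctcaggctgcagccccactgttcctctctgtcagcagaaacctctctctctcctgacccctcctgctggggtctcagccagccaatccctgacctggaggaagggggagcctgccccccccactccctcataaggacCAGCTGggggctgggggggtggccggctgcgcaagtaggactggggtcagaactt
Casq2, chr3:102086165-102086414, plus strand: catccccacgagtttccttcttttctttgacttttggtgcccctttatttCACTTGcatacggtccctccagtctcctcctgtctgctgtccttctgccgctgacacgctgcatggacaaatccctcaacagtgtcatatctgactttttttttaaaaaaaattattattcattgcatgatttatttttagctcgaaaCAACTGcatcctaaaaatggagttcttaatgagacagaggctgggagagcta
Pvalb, chr15:78206401-78206650, minus strand: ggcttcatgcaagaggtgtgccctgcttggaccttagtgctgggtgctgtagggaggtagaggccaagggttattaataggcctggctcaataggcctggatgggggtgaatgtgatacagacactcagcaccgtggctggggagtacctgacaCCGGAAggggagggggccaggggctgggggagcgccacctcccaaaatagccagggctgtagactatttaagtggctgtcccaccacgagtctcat

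Atp2a1 held 1 E-box in this window, Casq2 held 2 and this Pvalb promoter held 0 E-boxes and 1 N-box. A second Pvalb promoter in the table, chr15:78204238-78204487, held 1 E-box and 0 N-boxes. Casq1 also held 2 E-boxes, Pln held 1 and Ryr1 held 0. Of all 32851 promoters in the table, 66.2% held an E-box and 12.0% an N-box. The matches are descriptions of the letters and say nothing about binding.

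Expressed per length, as TPM, which scales transcripts to a common total, the 10 genes made up between 0.831% and 1.99% of a library. In 10m xNMJ the order of the median TPM was Pvalb (8159, range 5252 to 14558), Atp2a1 (2838, 1730.1 to 3507), Trdn (1394.5, 989 to 1761) and Casq1 (517, 342 to 759). Casq2 followed at 14.9 TPM (1.99 to 31.7), then Ryr1 at 9.10 (5.03 to 12.9), Stac3 at 8.87 (5.47 to 13.4), Atp2a2 at 3.45 (0.175 to 4.66), Pln at 0.141 (0 to 10.2) and Sln at 0.0443 (0 to 13.3). The ranges of Atp2a1 and Trdn just overlapped, those of Casq2, Ryr1 and Stac3 overlapped widely, and those of Pln and Sln could not be ordered and reached into the others. The fast-fibre forms of the pump and of calsequestrin were thus far above the other form in each group.

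The deposited TPM also shows which transcripts stood behind these values, because the ratio of count to TPM gives the length that was used. The length came out at 1318 nucleotides for Sln, equal to its annotated 1318, at 964 for Pvalb, whose coding transcripts measure 953 and 977, and at a median of 4475 for Atp2a2 (987 to 4825 over 30 libraries), whose coding transcripts measure 3984 and 4486. For Ryr1 the median was 2011 nucleotides (1299 to 2567 over 32 libraries), whereas its 3 annotated coding transcripts measure 15300 to 15358 nucleotides and carry support level 5. The length behind the Ryr1 values was thus that of none of the coding transcripts, and its annotated retained-intron transcripts measure 698 to 3044 nucleotides. By the study's methods the reference held coding transcripts of support level 3 or better. In the annotation used here, 0 of the 3 Ryr1 coding transcripts had such a level. The source of the length was not tested. Ryr1 values are to be read with this in mind and were not shown to measure the full-length message. Atp2a1 came out at 1312 nucleotides between annotated coding transcripts of 681 and 3477, so its level per length rests on how reads were shared between them.

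**Figure D1:**
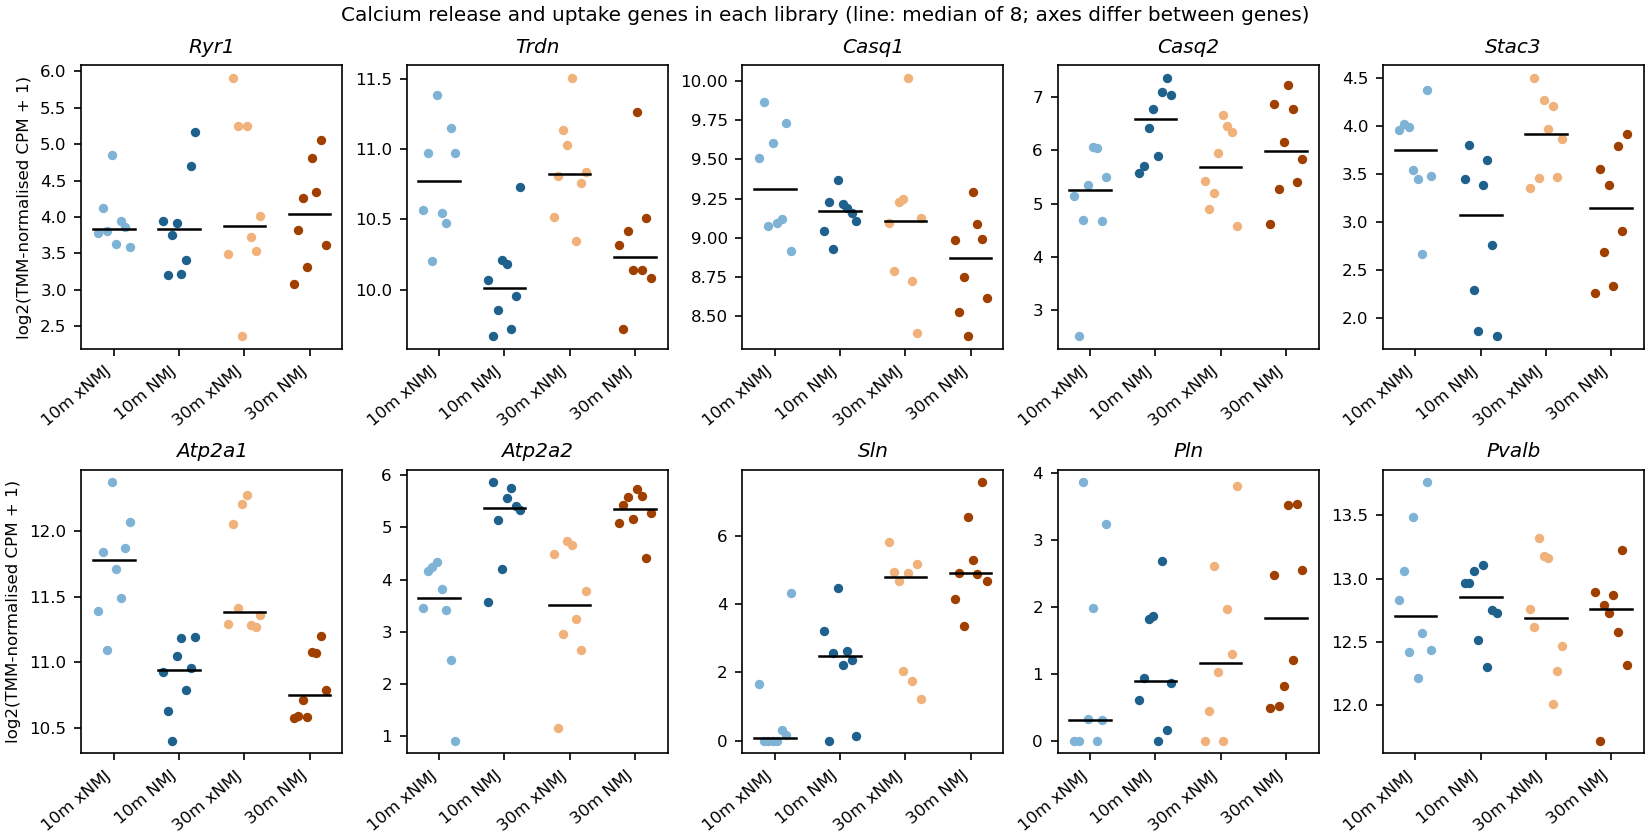
Each panel shows 1 gene, with the 8 libraries of each group as points on an axis of log2(TMM-normalised CPM + 1) and the group median as a line; axes differ between panels. The Atp2a1 points of 30m NMJ all lie below those of 30m xNMJ, the Atp2a2 points lie mostly higher in NMJ, and 4 of the 8 10m xNMJ libraries have Sln at 0.

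Between regions, 4 of the 10 genes passed the test at 10 months and 2 at 30 months. In 10m mice, Casq2 and Atp2a2 were higher in NMJ, and Atp2a1 and Trdn were lower. In 30m mice, Atp2a2 was higher and Atp2a1 was lower. The test was edgeR's quasi-likelihood test on the counts, scaled by trimmed means of M values (TMM), with p-values adjusted by the Benjamini-Hochberg method over 13990 genes. As background, 11.5% of all genes tested were called at 10 months, with 6.5% higher and 5.05% lower, and 9.26% at 30 months, with 5% higher and 4.25% lower. The median log2 fold change of the 10 genes was -0.18 at 10 months and -0.19 at 30 months, beside 0.0036 and -0.014 for all genes.

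These directions depend in part on how libraries were scaled. Scaling by total counts without TMM factors moved the median log2 fold change of all genes to 0.56 at 10 months and 0.61 at 30 months, and left 2 genes called at 10 months (Casq2 and Atp2a2) and 1 at 30 months (Atp2a2). Scaling by the summed counts of 14 fibre genes, a choice made after the data had been seen, moved the medians to 0.62 and 0.68, left Casq2 and Atp2a2 called higher at 10 months and Atp2a2 at 30 months, and added Pvalb as higher at both ages. Atp2a1 and Trdn were therefore called lower relative to the typical gene, and were not called relative to the fibre genes or to the total of reads. In bulk samples such as these, fewer fibres of a kind and less RNA per fibre cannot be told apart.

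Of the release genes, Ryr1, the release channel, showed 11.045 to 27.8 CPM in 10m xNMJ (median 13.2) and 8.17 to 34.8 in 10m NMJ (median 13.3). In the old mice it spanned 4.13 to 59.0 CPM in xNMJ (median 13.7) and 7.47 to 32.4 in NMJ (median 15.7). The groups overlapped throughout. The log2 difference between NMJ and xNMJ was 0.07 (SE 0.41, adjusted p = 0.94) at 10 months and -0.43 (SE 0.41, adjusted p = 0.62) at 30 months, and no difference was detectable at this spread. Since the length behind these values was that of no coding transcript, they were not shown to measure the full-length channel message. The Ryr1 gene (chromosome 7, 29003344 to 29125179, minus strand) is overlapped by 4 other annotated genes, and no strand option is named for the counting of these libraries.

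Trdn, which tethers calsequestrin at the junctional membrane, was the most abundant release gene by count. Its CPM ran from 1182 to 2673 in 10m xNMJ (median 1762.5) and from 813 to 1694 in 10m NMJ (median 1033). All 8 NMJ libraries were below the xNMJ median and 6 were below every xNMJ library, although the groups overlapped. The log2 fold change was -0.75 (SE 0.20, 1.68-fold lower, adjusted p = 0.011). In 30m mice the range was 1299 to 2902 CPM in xNMJ (median 1811) and 844 to 2462 in NMJ (median 1203), with 5 of 8 NMJ libraries below every xNMJ library. That log2 difference of -0.51 (SE 0.20) did not pass (adjusted p = 0.11), but it did without 30m NMJ replicate 5 (-0.70, adjusted p = 0.013), and without 30m xNMJ replicate 5 it was -0.41 (adjusted p = 0.22). At 10 months the call was lost with total-count scaling (-0.20, adjusted p = 0.51) and with fibre scaling (-0.08, adjusted p = 0.71), and with limma on TPM (-0.31, adjusted p = 0.15 on log2(TPM + 1) and 0.14 on log2(TPM + 0.1)). At 30 months these analyses turned the sign without a call. The values were 0.08 with total-count scaling, 0.17 with fibre scaling and 0.04 with limma on TPM. The Trdn gene (chromosome 10, 33080554 to 33476709, plus strand) is overlapped by 8 other annotated genes.

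Casq1, the calsequestrin of fast fibres, spanned 483 to 933 CPM in 10m xNMJ (median 641) and 487 to 661 in 10m NMJ (median 577). The 10m NMJ libraries were closely grouped within the range of the xNMJ libraries. In 30m mice it spanned 335 to 1036 CPM in xNMJ (median 552) and 331 to 626 in NMJ (median 468). The log2 differences were -0.24 (SE 0.18, adjusted p = 0.46) and -0.29 (SE 0.18, adjusted p = 0.38), and neither passed the test. The sign turned with total-count scaling (0.32 and 0.31) and with fibre scaling (0.41 and 0.42), again without a call.

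Casq2, the calsequestrin known from heart and slow fibres, was higher in 10m NMJ. It lay between 4.70 and 65.9 CPM in 10m xNMJ (median 37.1) and between 46.4 and 162 CPM in 10m NMJ (median 96.4). All 8 NMJ libraries exceeded the xNMJ median and 5 exceeded every xNMJ library. The log2 fold change was 1.36 (SE 0.40, 2.56-fold higher, adjusted p = 0.022). The call was lost without 10m NMJ replicate 7 (1.21, adjusted p = 0.054). In 30m mice, Casq2 ranged from 23.0 to 99.6 CPM in xNMJ (median 51.3) and from 23.5 to 148 in NMJ (median 63.0), with a log2 difference of 0.40 (SE 0.40, adjusted p = 0.64), and 0.56 (adjusted p = 0.44) without 30m xNMJ replicate 5. The regional difference was not shown to change with age, since the interaction was -0.96 (SE 0.56, adjusted p = 1, unadjusted p = 0.096).

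Stac3, the adaptor of the voltage sensor, was among the low genes, with 5.33 to 19.8 CPM in 10m xNMJ (median 12.6) and 2.49 to 12.9 in 10m NMJ (median 7.61). In 30m mice it showed 9.25 to 21.7 CPM in xNMJ (median 14.1) and 3.78 to 14.2 in NMJ (median 7.96). At each age 7 of 8 NMJ libraries were below the xNMJ median. The log2 difference of -0.78 at both ages (SE 0.37 and 0.36) did not pass the test (adjusted p = 0.19 and 0.21). It shrank to -0.21 and -0.12 with total-count scaling, and to -0.09 and -0.02 with fibre scaling.

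Of the uptake genes, Atp2a1, the main pump of fast fibres, was lower in NMJ at both ages. It lay between 2189 and 5295 CPM in 10m xNMJ (median 3515) and between 1354 and 2341 in 10m NMJ (median 1963). In 30m mice it lay between 2462 and 4954 CPM in xNMJ (median 2677) and between 1522 and 2348.5 in NMJ (median 1721). All 8 NMJ libraries were below the xNMJ median at each age, and at 30 months the 2 groups did not overlap in CPM. In TPM they did overlap at 30 months, at 1833 to 3323 in xNMJ and 1758.5 to 2471 in NMJ. The share of all genes without overlap was not computed, so the separation in CPM is only a description. The log2 fold change was -0.87 (SE 0.19, 1.82-fold lower, adjusted p = 0.0015) at 10 months and -0.86 (SE 0.19, 1.82-fold lower, adjusted p = 0.0019) at 30 months, and -0.76 (adjusted p = 0.0045) without 30m xNMJ replicate 5. With total-count scaling the values were -0.32 (adjusted p = 0.22) and -0.24 (adjusted p = 0.37), and with fibre scaling -0.20 (adjusted p = 0.30) and -0.13 (adjusted p = 0.52), so these scalings end the call. At 30 months limma on TPM ended it as well (-0.23, adjusted p = 0.22 on log2(TPM + 1) and 0.21 on log2(TPM + 0.1)). The gene lies on chromosome 7 (126445858 to 126463108, minus strand) and overlaps the protein-coding gene Rabep2.

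Atp2a2, the pump of slow fibres and heart and the form also found in cells other than muscle, moved the other way. It spanned 0.891 to 19.3 CPM in 10m xNMJ (median 11.6) and 10.9 to 57.2 in 10m NMJ (median 40.4). In 30m mice it spanned 1.24 to 25.6 CPM in xNMJ (median 10.6) and 20.2 to 52.6 in NMJ (median 40.1). At 10 months 6 of 8 NMJ libraries, and at 30 months 7 of 8, exceeded every xNMJ library. The log2 fold change was 1.70 (SE 0.46, 3.24-fold higher, adjusted p = 0.011) at 10 months and 1.57 (SE 0.46, 2.97-fold higher, adjusted p = 0.022) at 30 months, and 1.76 (adjusted p = 0.013) without 30m xNMJ replicate 5. Atp2a2 was called higher at both ages in each of the 10 alternative analyses and in each of the 32 fits that left out 1 library, with log2 fold changes of 1.39 to 2.34 over both ages.

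The balance of the 2 pumps within a library needs no scaling between libraries. It does rest on the lengths behind the TPM, at medians of 1312 nucleotides for Atp2a1 and 4475 for Atp2a2. By count Atp2a2 weighs more: 10m NMJ replicate 2, with the highest share below, held 504 counts of Atp2a2 and 13938 of Atp2a1. Atp2a2 made up a median of 0.123% of the pump TPM in 10m xNMJ (0.00568% to 0.269%) and 0.590% in 10m NMJ (0.199% to 0.996%). In 30m mice the share was 0.147% in xNMJ (0.00791% to 0.289%, the highest in replicate 7, whose Atp2a2 TPM of 6.23 is high for its 5.29 CPM) and 0.652% in NMJ (0.251% to 0.843%). Atp2a1 therefore remained the dominant pump message in every library, NMJ included. Casq2 likewise made up a median of 2.57% of the calsequestrin TPM in 10m xNMJ (0.262% to 5.91%), 8.43% in 10m NMJ (4.24% to 13.977%), 4.38% in 30m xNMJ (2.31% to 11.024%) and 8.47% in 30m NMJ (2.55% to 14.2%).

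**Figure D2:**
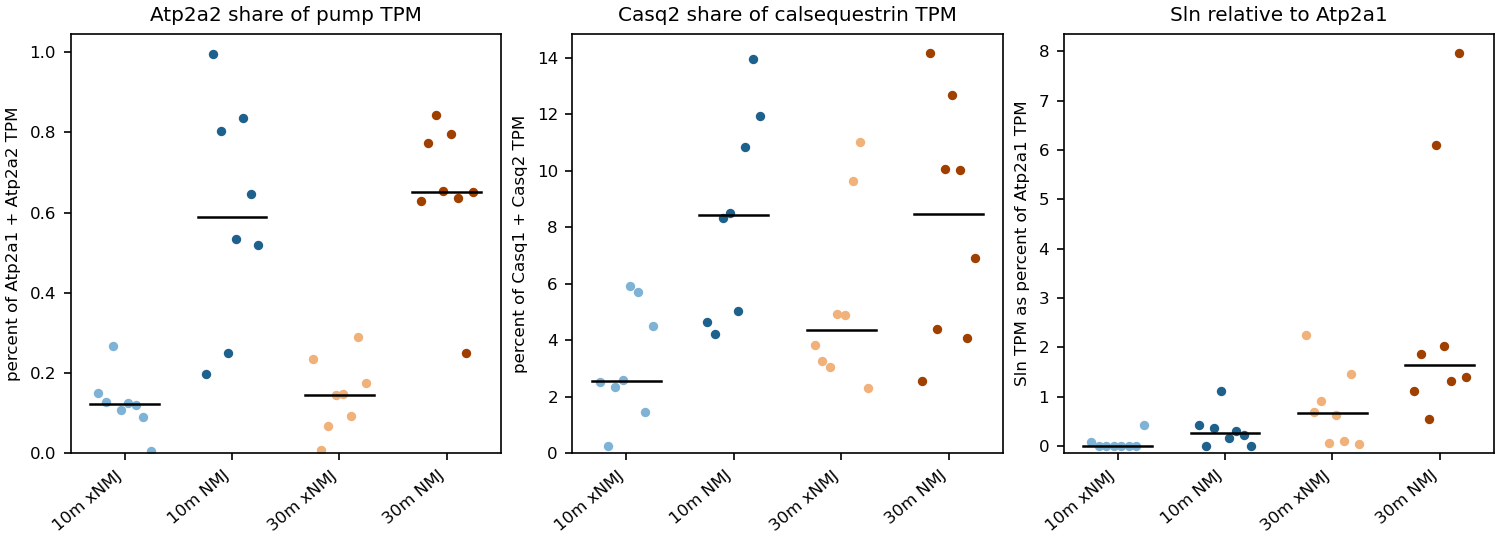
Per-library shares within pairs of genes, with each point a library, lines at group medians and the y axis in percent of TPM; left, Atp2a2 of both pumps, middle, Casq2 of both calsequestrins, right, Sln relative to Atp2a1. Atp2a2 stays under 1% of the pump TPM in all 32 libraries, and its medians are 0.123% and 0.147% in the xNMJ groups against 0.590% and 0.652% in the NMJ groups. These shares rest on the transcript lengths behind the TPM.

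Markers of other cells moved with region as well. The Schwann cell genes S100b, Kcna1 and Sox10 were each higher in NMJ at both ages, under TMM and under both other scalings. Kcna1 was at 0 in 7 and Sox10 in 6 of the 8 10m xNMJ libraries. These genes entered the test mainly through the NMJ groups, so their calls are not read as sizes. S100b, a calcium-binding protein of glia, had medians of 0.116 CPM in young xNMJ libraries, where it was at 0 in 4 of 8, and 43.2 CPM in young NMJ libraries. Fibroblast genes were higher in NMJ for 4 of 5 at both ages (summed 10m medians of 143 CPM away from the junction and 1156 CPM at it, most abundant Dcn). Macrophage genes were higher for 2 of 5 at each age (10m medians of 12.4 and 75.5 CPM, most abundant Mrc1), and for 5 of 5 at 10 months with total-count or fibre scaling. Beside Mrc1 the calls were Cd68 at 10 months and Adgre1 at 30 months. Cd68 was at 0 in 6 of 8 10m xNMJ libraries and Adgre1 in all 8 30m xNMJ libraries, so these 2 calls are not read as sizes. None of the 6 smooth muscle genes passed at either age under TMM or total-count scaling (Lmod1 was higher at 10 months with fibre scaling), and their summed 10m medians were 82.3 CPM (xNMJ) and 67.3 CPM (NMJ). Of the 5 slow fibre genes tested none was higher under TMM scaling, and Myl3 was lower at 10 months under TMM scaling but not under the other scalings, which called Tpm3 higher at 30 months when based on total counts or fibre genes. The slow fibre genes had a summed level of 42.8 to 882 CPM in 10m xNMJ and 38.0 to 124 CPM in 10m NMJ, and the defining slow genes Myh7 and Myl2 had medians of 1.29 and 0 CPM in 10m NMJ. Heart genes were low, with a summed median of 17.0 CPM in 10m NMJ. Nppa was called higher at 10 months but not at 30 months. Actc1 was called lower at both ages under TMM, but under neither total-count nor fibre scaling. Nppa was at 0 in all 8 libraries of 10m xNMJ and entered the test through the other groups. Of 4 endothelial genes tested 0 passed at 10 months and Cdh5 was lower at 30 months under TMM but not under total-count or fibre scaling, and of 5 denervation genes tested 3 were higher at 10 months and 2 at 30 months. Of these denervation genes, Myog was at 0 in 6 of 8 10m xNMJ libraries, and its calls are not read as sizes. The part of the other cell types in the higher Atp2a2 and Casq2 was not tested.

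Fast fibre genes were lower beside Atp2a1 relative to the typical gene, 3 of 8 at 10 months and 5 of 8 at 30 months, among them Tnnt3 (log2 fold change -0.92 and -1.01) and Myh1 (-1.10 and -0.96), but 0 of 8 were lower at either age with total-count scaling. With fibre scaling Tnnt3 was still lower at 30 months and Tnnc2 was higher at 10 months. That scaling sums fast and general fibre genes, so these calls set such genes against their own kind and are not independent of it. Of 6 general fibre genes tested, 2 were lower at both ages under TMM scaling. These were Acta1 and Ckm, the muscle creatine kinase, the latter with a log2 fold change of -1.08 at both ages. The median log2 fold change of this list was -0.48 at 10 months and -0.09 at 30 months. With total-count scaling 0 of 6 were lower, while Des was higher at both ages and Ttn at 30 months.

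**Figure D3:**
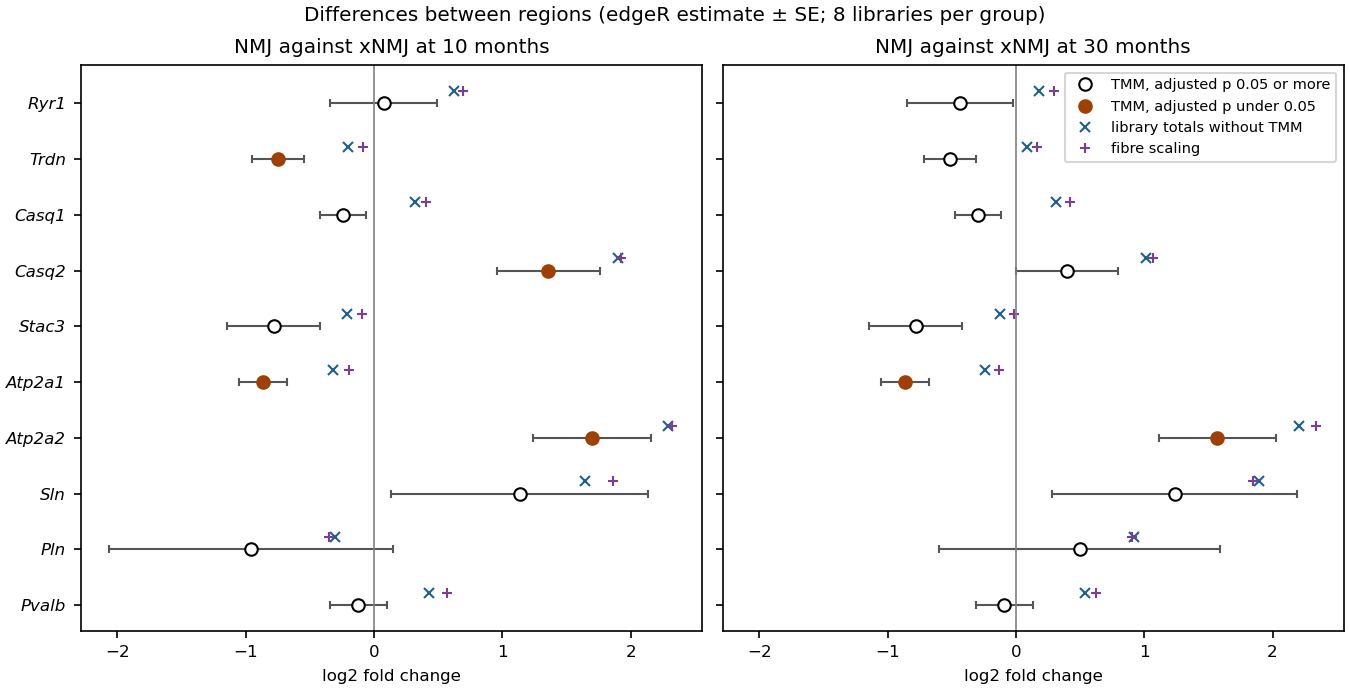
Log2 fold changes between NMJ and xNMJ for the 10 genes at 10 months (left) and 30 months (right); circles are edgeR estimates with TMM scaling and bars their SE, filled where the adjusted p is under 0.05, with crosses for total-count scaling and plus signs for fibre scaling. The other scalings shift all genes to the right, which takes Atp2a1 and Trdn towards 0 and leaves Atp2a2 at 2.21 or more.

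Sln, the inhibitor of the pump that uncouples its cycle in skeletal muscle, varied widely between libraries. In 10m xNMJ it was at 0 in 4 of 8 libraries and at most 2.18 CPM in 3 more, while replicate 8 held 19.1 CPM. In 10m NMJ it was at 0 in 1 library and reached 21.5 CPM (median 4.54). The 30m libraries spanned 1.34 to 55.7 CPM in xNMJ (median 27.04) and 9.33 to 190 in NMJ (median 28.9). Between regions the log2 difference was 1.14 (SE 1.0007, adjusted p = 0.55) at 10 months and 1.24 (SE 0.96, adjusted p = 0.52) at 30 months. Limma on TPM called Sln higher on log2(TPM + 0.1) at 10 months (2.99, adjusted p = 0.036) and on log2(TPM + 1) at 30 months (1.91, adjusted p = 0.039), and each of these was not called with the other pseudocount. The 10m value rests on replicate 8 of 10m xNMJ, without which it was 4.42 (adjusted p = 0.0086). The same library held the lowest Atp2a2 of its group, at 0.891 CPM.

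Pln, the homologous inhibitor known from heart and slow fibres, was close to the floor. It was at 0 in 3 libraries of 10m xNMJ, 1 of 10m NMJ and 2 of 30m xNMJ, with medians of 0.239, 0.861 and 1.24 CPM there and 2.92 CPM in 30m NMJ, and it reached at most 13.5 CPM. The log2 differences between regions, -0.96 (SE 1.11, adjusted p = 0.66) and 0.50 (SE 1.10, adjusted p = 0.86), did not pass the test.

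Pvalb, the cytosolic buffer, was the most abundant of the genes in each group. It showed 4752 to 13886 CPM in 10m xNMJ (median 6679), 5034 to 8807 in 10m NMJ (median 7436), 4110.5 to 10232 in 30m xNMJ (median 6595) and 3364 to 9597 in 30m NMJ (median 6943). The groups overlapped. The log2 differences between regions were -0.12 (SE 0.22, adjusted p = 0.80) and -0.09 (SE 0.22, adjusted p = 0.88). With fibre scaling they were 0.57 (adjusted p = 0.0093) and 0.62 (adjusted p = 0.0049), so that relative to 14 fibre genes Pvalb was higher in NMJ.

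With age, none of the 10 genes passed the test in either region, and the background was as sparse. Of all genes, 0% were called in NMJ (372 of 13990 at an unadjusted p under 0.05, 0 called by DESeq2) and 0.0429% in xNMJ (6 genes by edgeR, 84 by DESeq2). For the interaction of age and region, 0% of genes were called by edgeR, 708 had an unadjusted p under 0.05, and DESeq2 called 10. DESeq2 called 0 of the 10 genes in the 2 comparisons of ages and in the interaction.

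Sln had the largest difference with age among the 10. All 8 of the 30m libraries lay above the 10m median in each region, and 6 of 8 in NMJ and 5 of 8 in xNMJ lay above every 10m library of the same region. The log2 difference was 3.17 in NMJ (SE 1.02, unadjusted p = 0.0039, adjusted p = 1) and 3.06 in xNMJ (SE 1.05, unadjusted p = 0.0062, adjusted p = 0.33). Neither is a call. Without replicate 8 of 10m xNMJ the xNMJ value was 6.35 (adjusted p = 0.03). Relative to Atp2a1 within each library, Sln was at a median of 0.00152% of Atp2a1 TPM in young xNMJ libraries and 0.256% in young NMJ libraries, and at 0.661% and 1.64% in the old libraries of the same regions.

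For the other 9 genes no difference with age passed. In NMJ the log2 differences ran from -0.37 for Casq2 (SE 0.39) to 1.36 for Pln (SE 1.10), and in xNMJ from -0.25 for Casq1 (SE 0.18) to 0.63 for Ryr1 (SE 0.42). Atp2a1 differed by -0.07 (SE 0.19) in each region and Pvalb by -0.12 and -0.15 (SE 0.22 for both). The interaction was 0.0026 (SE 0.26) for Atp2a1 and -0.13 (SE 0.63) for Atp2a2, so a change of the regional difference with age was not detected. Casq1 was below its 10m median in 7 of 8 old libraries in each region, with differences of -0.30 and -0.25 (adjusted p = 1 and 0.74). The old xNMJ library above it was replicate 5, at 1036 CPM, the one with raised synaptic genes. Over the fits that left out 1 library, the xNMJ value ran from -0.43 to -0.17, and none was called.

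**Figure D4:**
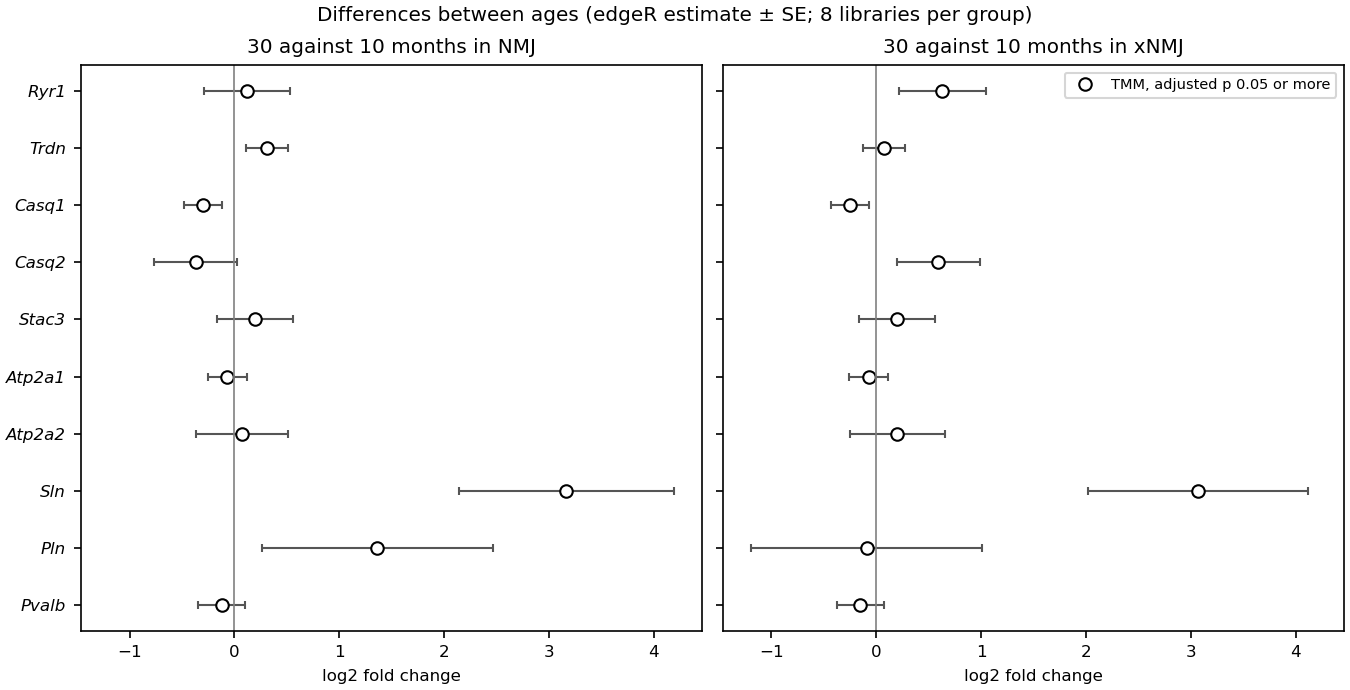
Log2 fold changes between 30m and 10m for the 10 genes in NMJ (left) and xNMJ (right), as edgeR estimates with SE bars; all circles are open, because no adjusted p was under 0.05. Sln stands apart at 3.17 and 3.06 with SE of 1.02 and 1.05, and the remaining genes lie between -0.37 and 1.36.

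The wider machinery was read from 59 further calcium-handling genes in 6 lists, of which 57 were in the tables and 51 could be tested. At 10 months 4 were higher in NMJ and 6 lower, and at 30 months 1 was higher and 7 lower, with 41 and 43 that did not pass. Their median log2 fold changes were -0.26 and -0.03. With age 0 of 51 were called in either region. With total-count scaling the same lists gave 11 higher and 0 lower at 10 months, and 17 higher and 0 lower at 30 months, and with fibre scaling 15 and 23 higher and 0 lower, so the lower calls of these lists hold only relative to the typical gene. Of all genes, total-count scaling called 19.1% higher and 1.5% lower at 10 months, and 19.2% and 0.536% at 30 months, and fibre scaling called 21.9% and 1.12%, and 21.8% and 0.279%. Without 30m xNMJ replicate 5, TMM scaling gave 2 higher and 10 lower at 30 months, which include all 8 called with it.

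Of 13 triad genes tested, 2 were lower and 1 higher at 10 months and 3 were lower at 30 months, and of 4 voltage sensor genes 1 was lower at each age. Tmem38a, a counter-ion channel of the reticulum, spanned 679 to 1055 CPM in 10m xNMJ and 427 to 650 in 10m NMJ. Its log2 fold change was -0.66 (SE 0.15, adjusted p = 0.0026) at 10 months and -0.68 (SE 0.15, adjusted p = 0.0023) at 30 months. Jph1, which holds the tubule and the reticulum together, had log2 fold changes of -0.85 (adjusted p = 0.005) and -0.84 (adjusted p = 0.006). Of the voltage sensor, the β subunit gene Cacnb1 was lower at 10 months (-0.88, adjusted p = 0.0055) and the pore gene Cacna1s at 30 months (-0.78, adjusted p = 0.0053), while Cacng1 and Cacna2d1 did not pass at either age. Cacnb1 had a log2 difference of -0.66 at 30 months (adjusted p = 0.05, just short of a call), and was called lower there without 30m xNMJ replicate 5 and with DESeq2 size factors. Sypl2, a triad protein, was lower at 30 months (-0.61, adjusted p = 0.03). Bin1 and Jsrp1, the other abundant triad genes, were not called under TMM scaling with all libraries, and Jsrp1 was called lower at 30 months without 30m xNMJ replicate 5.

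A pair of calcium-binding proteins of the reticulum lumen moved apart. Hrc was lower at both ages (log2 fold change -0.78, adjusted p = 0.00081, and -0.73, adjusted p = 0.0022). Calr, the general calcium-binding chaperone calreticulin, was higher at both (0.58, adjusted p = 0.02, and 0.82, adjusted p = 0.0014), with 58.2 to 133 CPM in 10m xNMJ and 112 to 171 in 10m NMJ. Letm1, of the inner mitochondrial membrane, and Ppp3ca, a catalytic subunit of calcineurin, were lower at both ages, with log2 fold changes of -0.67 and -0.74 for Letm1 and of -0.50 and -0.43 for Ppp3ca. Calr was the one gene of these lists that passed in the same direction under TMM, total-count and fibre scaling at both ages.

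At 10 months Rcan1, a calcineurin inhibitor, was higher in NMJ (log2 fold change 1.10, adjusted p = 0.043), at 35.8 to 143 CPM against 7.87 to 59.3 CPM in xNMJ. Itpr3, an inositol trisphosphate receptor, and Atp2b2, a calcium pump of the surface membrane, were also called higher (adjusted p = 0.017 and 0.0073). Both are low genes, whose fitted fold changes are not read as sizes. Itpr3 had a median of 2.53 CPM in 10m NMJ and at most 0.866 CPM in xNMJ, and Atp2b2 had a median of 2.95 CPM against at most 0.933 CPM, with 4 of 8 libraries at 0. No 10m xNMJ library reached the filter of 1 CPM for either gene, so both entered the test through the other groups. Store-operated entry genes such as Stim1 and Orai1 did not pass under TMM scaling at either age. With total-count or fibre scaling, Stim1 was called higher at both ages and Orai1 at 30 months. Those scalings called 19.1% to 21.9% of all genes higher.

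**Figure D5:**
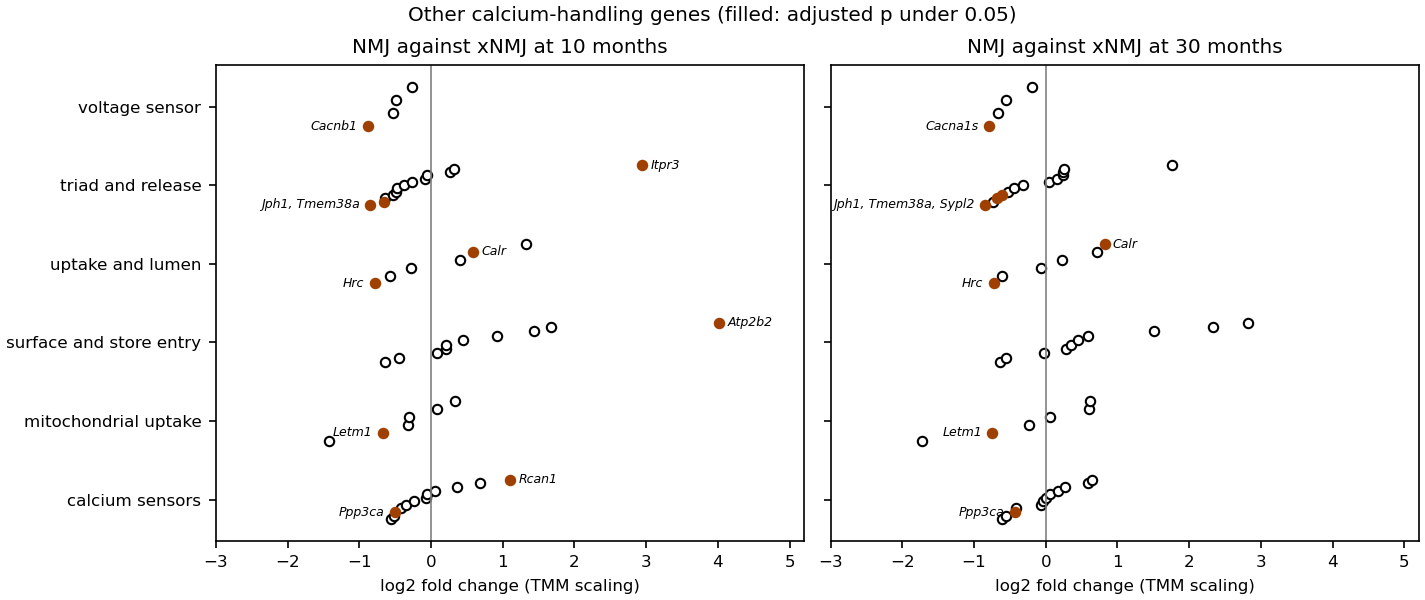
Log2 fold changes between NMJ and xNMJ with TMM scaling for 51 further calcium-handling genes, 1 point per gene and 1 row per list, at 10 months (left) and 30 months (right), filled and named where the adjusted p is under 0.05 (names of lower genes stand together at the left of their row, from the lowest up). Of the filled points 4 lie to the right and 6 to the left at 10 months, and 1 to the right and 7 to the left at 30 months; with total-count scaling no gene was called lower.

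Within groups, the abundant fast-fibre members varied together. After subtraction of the group means from log2 CPM, the highest of the 45 correlations over 32 libraries were Trdn with Atp2a1 (r = 0.71), Trdn with Pvalb (r = 0.63) and Casq1 with Pvalb (r = 0.63), and the lowest was Atp2a2 with Sln (r = -0.55). These are descriptions: the points share library, depth and scaling factor. Among 6722 tested genes averaging 10 CPM or more, the patterns most like that of Atp2a1 were those of Ak1 (r = 0.87), Atp5g1 (r = 0.86) and Eif1 (r = 0.85), and those most like Pvalb were Tpm1 (r = 0.89), Mybpc2 (r = 0.87) and Anapc5 (r = 0.87). Trdn was most like Tnnc2 (r = 0.89), Ube2c (r = 0.88) and Pdcd5 (r = 0.84), and Casq1 like Med28, Myl1 and Pdlim7 (r = 0.74, 0.74 and 0.73). For the remaining genes the highest r was 0.74 for Atp2a2 (Map2k4), 0.69 for Casq2 (G0s2), 0.63 for Stac3 (Ulk4), 0.61 for Sln (Wbp1l), 0.78 for Ryr1 (Nars) and 0.68 for Pln (Myzap).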

How the data were processed

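RNA from laser-captured regions of 32 tibialis anterior samples was amplified with SMART-Seq v4 and sequenced by the authors. The submitters' processing notes name cutadapt 1.9.1, kallisto 0.43.1 and the build GRCm38. The deposited tables hold read counts per gene, in which the authors divided reads that mapped to several transcripts equally among them, here present as whole numbers, and TPM values, which the authors normalised by length and library. Per the study's methods the reference held protein-coding transcripts of better support, and no strand option is named for these libraries. All sample columns were mapped to a sample by name.

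Counts were tested with edgeR 4.0.16 in R 4.3.3 (quasi-likelihood test, TMM factors, 4 groups in 1 fit). Genes with at least 1 CPM in at least 8 libraries, 13990 of 24952, were kept, and p-values were adjusted by the Benjamini-Hochberg method with a threshold of 0.05. The 5 comparisons were NMJ against xNMJ at each age, 30m against 10m in each region, and their interaction. The alternatives tried were library totals, DESeq2 1.42.0, edgeR with the size factors of DESeq2, no filter, only the groups compared, insert size as a covariate, limma 3.58.1 on log2(TPM + 1) and log2(TPM + 0.1), a replicate block, each library left out, and fibre scaling by the summed counts of 14 fast and general fibre genes, which was chosen after the data had been seen. The scripts were tested on simulated data, in which a first criterion on the share of changed genes recovered was not met and was replaced by one for genes of at least 10 CPM, since genes below 10 CPM were recovered less often.

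Shares within a library and implied transcript lengths came from the counts and TPM. CPM values in the text are TMM-normalised. Total counts of 4026648 to 16516788 per library set the counting floor, while the SE values also hold the spread between libraries. The text names all 10 genes, the listed genes past the threshold, up to 4 of the most abundant genes of a list, and for each gene the genes most like it by Pearson r. The 10 genes and the lists were chosen with earlier results of these data known. Strit1 and Calm4 were not analysed here. The Schwann cell list is reported only in part here.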

Additional observations from a re-analysis of the deposited data

Results flagged for a closer look

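In 2 of 40 groups of 8 libraries, 1 library stood apart from the others by Dixon's test, where chance gives about 1 in 20. Ryr1 was at 27.8 CPM in replicate 4 of 10m xNMJ, and the next library was at 16.3 CPM. Casq2 was at 4.70 CPM in replicate 2 of 10m xNMJ, and the next library was at 24.5 CPM.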

How the results depend on the processing

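Atp2a2 stayed called higher in NMJ at both ages in each of the 10 alternatives and the 32 fits without 1 library. Of 50 fold changes of single genes, 40 kept their side of the threshold throughout. The count of genes called was 2 at 10 months and 1 at 30 months with library totals, and 1 at 30 months with limma on log2(TPM + 0.1), where the main counts were 4 and 2. With age in xNMJ it ranged from 0 to 1 without 1 library, where Sln was called without 10m xNMJ replicate 8. With the replicate block, 4 genes were called at 10 months, 3 at 30 months, where Trdn was added (-0.54, adjusted p = 0.014), and 0 for the interaction. The shared numbers were not shown to pair libraries: the correlation of same-numbered libraries was over 0.1 for 4 of 8 pairs at 10 months and 1 of 8 at 30 months, and in each region 4 of 8 libraries were most like their own number, with a mean r of 0.089 and 0.081 for equal numbers and -0.013 and -0.011 for others, a hint from the data and not from the design. The age comparisons cannot carry the block. Counts near the floor, 0.153 to 0.933 CPM, limit Pln and the young Sln values. A total of 57 of 470 values outside the fits without 1 library changed sign, 2 of them called, and the cause was not tested. Over all genes, edgeR and DESeq2 called 6 and 84 with age in xNMJ, and 0 and 10 for the interaction. With library totals, the reversed log2 values were Casq1 0.32, Pvalb 0.43 between regions at 10 months, and Ryr1 0.18, Trdn 0.0843, Casq1 0.31, Pvalb 0.54 between regions at 30 months, and Pln 0.0744 with age in xNMJ. With limma on log2(TPM + 1), the reversed log2 values were Casq1 0.23, Pln 0.0655, Pvalb 0.41 between regions at 10 months, and Ryr1 0.30, Trdn 0.0429, Casq1 0.33, Pvalb 0.51 between regions at 30 months, and Atp2a1 0.0372 with age in NMJ, and Pln 0.21 with age in xNMJ, and Ryr1 0.0153, Casq1 0.0957, Stac3 -0.24, Atp2a2 0.20 for the interaction. With limma on log2(TPM + 0.1), the reversed log2 values were Casq1 0.23, Pln 0.66, Pvalb 0.41 between regions at 10 months, and Ryr1 0.38, Trdn 0.0429, Casq1 0.33, Pvalb 0.51 between regions at 30 months, and Atp2a1 0.0372 with age in NMJ, and Pln 0.62 with age in xNMJ, and Ryr1 0.0714, Casq1 0.0959, Stac3 -0.23, Atp2a2 0.22, Sln -0.88 for the interaction. With the replicate block, the reversed log2 values were Ryr1 -0.0618, Pln 0.12 between regions at 10 months, and Atp2a2 0.0669, Sln -2.27, Pvalb -0.0402 for the interaction. With fibre scaling, the reversed log2 values were Casq1 0.41, Pvalb 0.57 between regions at 10 months, and Ryr1 0.30, Trdn 0.17, Casq1 0.42, Pvalb 0.62 between regions at 30 months, and Casq1 0.0116, Atp2a2 0.0154, Sln -0.0153 for the interaction. With DESeq2, the reversed log2 values were Stac3 -0.0403, Atp2a1 -0.0397, Pvalb -0.00543 for the interaction. With DESeq2 size factors in edgeR, the reversed log2 values were Stac3 -0.0434, Atp2a1 -0.0397, Pvalb -0.00543 for the interaction. Without a filter on low counts, the reversed log2 values were Stac3 -0.0120, Atp2a1 -0.0106 for the interaction. With insert size as a covariate, the reversed log2 values were Casq1 0.00975 for the interaction. Leaving out 1 library at a time, the ranges that crossed 0 were Pvalb -0.20 to 0.0451, Ryr1 -0.20 to 0.26 between regions at 10 months, and Pvalb -0.19 to 0.00761 between regions at 30 months, and Atp2a2 -0.0794 to 0.18, Ryr1 -0.0738 to 0.39 with age in NMJ, and Pln -1.03 to 0.80, Atp2a1 -0.18 to 0.0359, Pvalb -0.25 to 0.0125, Atp2a2 -0.00579 to 0.37, Trdn -0.0335 to 0.18 with age in xNMJ, and Stac3 -0.15 to 0.17, Atp2a1 -0.11 to 0.11, Pvalb -0.14 to 0.13, Casq1 -0.13 to 0.13, Atp2a2 -0.30 to 0.0766, Sln -3.18 to 0.78 for the interaction.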
